A study of Mus musculus with 2 samples.

Results

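Of 31053 genes counted in single cells of mouse small intestine, 8 that encode mediators of inflammation are described here. They were taken by symbol from both count tables: the interleukin-1 genes Il1a, Il1b and Il1rn, the cytokine gene Tnf, the enzyme genes Arg1, Nos2 and Ptgs2, and Acod1. The tissue of 1 FMTg mouse and 1 Tg mouse had been taken 24 h after 1 dose of tamoxifen (6 mg for every 40 g that the mouse weighed). The comparison asks how acute p53 activation through loss of Mdm2, the main inhibitor of p53, changes the intestine. The FMTg mouse had the genotype Mdm2FM/- Cag-CreERTg, and the Tg mouse, which retains Mdm2, had the genotype Mdm2+/- Cag-CreERTg. Both were C57BL/6j animals of 60 days, and both carried 1 Mdm2 null allele, the tamoxifen-inducible Cre transgene and the tamoxifen. Because the Cag promoter is active in most cell types, Cre was not limited to the epithelium or to leukocytes. With 1 library per genotype no statistical test is possible, and every interval below covers counting error only, not differences between mice.

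Interleukin-1 alpha and beta activate the same receptor, and the product of Il1rn, the interleukin-1 receptor antagonist, blocks it. Interleukin-1 beta is made as an inactive precursor that inflammasome caspases cleave, so its mRNA is not a measure of the released cytokine. Arg1 and Nos2 encode arginase 1 and inducible nitric oxide synthase, which compete for arginine and are widely used to contrast alternative and classical activation of mouse macrophages. Ptgs2 encodes cyclooxygenase 2, the inducible enzyme of prostaglandin synthesis, and Acod1 the mitochondrial enzyme that makes itaconate in activated myeloid cells. TNF is a cytokine of macrophages, mast cells and activated T cells.

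The genes lie on 6 chromosomes of the mm10 assembly and are all protein coding. Il1a (chr2:129299610-129309972, minus strand), Il1b (chr2:129364570-129371139, minus strand) and Il1rn (chr2:24336853-24351494, plus strand) share chromosome 2. Tnf lies at chr17:35199381-35202007 on the minus strand, Arg1 at chr10:24915221-24927484 on the minus strand, and Nos2 at chr11:78920787-78960254 on the plus strand. Ptgs2 lies at chr1:150100031-150108227 and Acod1 at chr14:103046977-103056573, both on the plus strand. Il1a and Il1b each overlap 1 gene, on the opposite strand. RefSeq gave a promoter window for 6 of the 8 genes, and 4 are printed to show genes with different source cells: the mostly myeloid pair Il1b and Il1rn, Ptgs2 from myeloid and tuft cells, and Tnf from many lymphoid cells. Each window ends at the base before the transcription start (for Il1rn, before the annotated gene), is read 5′ to 3′ on the strand of the gene in GRCm38.p6 (mm10), and has matches to the searched motifs in capitals.
Il1b, chr2:129371140-129371389, minus strand: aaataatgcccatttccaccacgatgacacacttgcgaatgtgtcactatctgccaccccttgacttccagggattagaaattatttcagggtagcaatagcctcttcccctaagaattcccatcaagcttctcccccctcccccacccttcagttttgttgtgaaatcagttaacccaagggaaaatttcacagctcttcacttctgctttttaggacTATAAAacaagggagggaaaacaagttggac
Il1rn, chr2:24336610-24336852, plus strand: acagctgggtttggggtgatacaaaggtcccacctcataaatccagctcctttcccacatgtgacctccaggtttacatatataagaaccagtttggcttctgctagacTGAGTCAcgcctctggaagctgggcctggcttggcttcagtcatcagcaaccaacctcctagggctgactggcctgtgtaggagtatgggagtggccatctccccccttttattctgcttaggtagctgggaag
Ptgs2, chr1:150099781-150100030, plus strand: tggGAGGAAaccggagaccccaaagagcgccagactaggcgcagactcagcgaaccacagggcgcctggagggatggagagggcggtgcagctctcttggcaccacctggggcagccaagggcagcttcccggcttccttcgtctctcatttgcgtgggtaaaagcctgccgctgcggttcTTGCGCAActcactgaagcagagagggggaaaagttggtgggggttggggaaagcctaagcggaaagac
Tnf, chr17:35202008-35202257, minus strand: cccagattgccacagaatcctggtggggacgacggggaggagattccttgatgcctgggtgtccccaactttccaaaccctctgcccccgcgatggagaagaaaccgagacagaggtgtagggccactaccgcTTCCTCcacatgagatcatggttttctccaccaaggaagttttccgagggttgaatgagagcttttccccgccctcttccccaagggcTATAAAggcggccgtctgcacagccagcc

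In these windows Il1b and Tnf have a TATAAA match on their own strand, starting at base -31 of Il1b and base -29 of Tnf, counted back from the start site. That motif is present in 7.59% of 32851 mouse promoter windows of 250 bases. Ptgs2 has the C/EBP motif TTGCNNAA, which reads the same on both strands, starting at base -69 (9.56% of all windows), and the PU.1 core GAGGAA at base -247 (23.3%). Tnf has the PU.1 core on the other strand at base -117. The upstream window of Il1rn has the AP-1 motif TGANTCA at base -141 (6.75% of all windows). That position is counted from the RefSeq start, which lies past the end of the printed window, 243 of the 250 bases searched. An NF-kB match, GGG and NN followed by TTTCC (1.41% of all windows), was found for 1 of the other RefSeq starts of Il1rn and in none of the 4 printed windows, and the cyclic AMP response core TGACGT (6.47%) was in none of them. All motifs other than TATAAA were searched on both strands. A match describes the letters and does not show that a factor binds.

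The libraries held 6382 barcodes with 49805718 unique molecular identifiers (UMIs, each standing for 1 captured transcript) for FMTg and 6270 barcodes with 54013005 UMIs for Tg. Filters left 2675 FMTg cells (median 4710 UMIs) and 2913 Tg cells (median 4938 UMIs). A limit of 25% mitochondrial UMIs removed 3353 FMTg and 2946 Tg barcodes. The libraries shared 14 barcode sequences, 4 of them among kept cells. Cells were grouped into 22 clusters without the 8 genes or the related genes listed below, and 6 clusters were left unnamed. Macrophage-like cells, named from 18 marker genes, were 47 (1.76% of cells) in FMTg and 204 (7.003%) in Tg. Neutrophil-like cells, named from 13 marker genes, were 7 (0.262%) in FMTg and 53 (1.82%) in Tg. Epithelial cells were 604 in FMTg and 599 in Tg. All 18 macrophage markers and all 13 neutrophil markers were detected in their own class in both libraries. The macrophage-like class consisted of a cluster led by Ccl9, Fn1 and Ccl2, the Fn1 cluster, with 29 FMTg and 160 Tg cells, and a cluster led by C1qa and Apoe, the C1qa cluster, with 18 FMTg and 44 Tg cells. The C1qa cluster scored almost as high for dendritic cells (1.691) as for macrophages (1.82), and Cd209a of the dendritic cell markers was among its leading genes. Its 12 summed dendritic cell markers were 1348 CPM (UMIs per 1000000 UMIs of the cells) in FMTg and 1402 CPM in Tg, against 389 CPM in FMTg and 254 CPM in Tg in the Fn1 cluster. The part of dendritic cells in the values of the C1qa cluster was not tested.

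The label of the group, mediators of myeloid cells, fitted 5 of the 8 genes in Tg cells and 4 in FMTg cells. More than 50% of the UMIs of Il1b, Il1rn, Arg1 and Acod1 lay in macrophage-like and neutrophil-like cells in both libraries, and those of Ptgs2 in Tg only. For Il1b the share was 94.1% in FMTg (exact 95% Clopper-Pearson interval 88.3 to 97.6) and 95.5% in Tg (93.7 to 96.9). For Arg1 it was 89.2% in FMTg (86.0 to 91.8) and 98.7% in Tg (98.3 to 99.0), and for Il1rn 92.3% in FMTg (74.9 to 99.1) and 98.9% in Tg (93.8 to 99.97). The Arg1 share rests on the naming of the Fn1 cluster: clustered with no mitochondrial limit, the myeloid classes held 0% of Arg1 UMIs in FMTg and 0.0410% in Tg. For Ptgs2 it was 28.2% in FMTg (15.001 to 44.9) and 76.8% in Tg (67.1 to 84.9). By share of UMIs Tnf and Nos2 went against the label. Such shares also depend on how many cells of a class were captured. Per UMI of the class, Tnf was higher in neutrophil-like than in T or NK cell-like cells, as given below. Only 9.47% of Tnf UMIs in FMTg (4.42 to 17.2) and 32.04% in Tg (23.2 to 41.96) lay in the myeloid classes, while 43.2% in FMTg and 44.7% in Tg lay in T or NK cell-like cells. Of 79 Nos2 UMIs in FMTg 75 lay in epithelial cells, and all 7 Nos2 UMIs in Tg did.

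**Figure D1:**
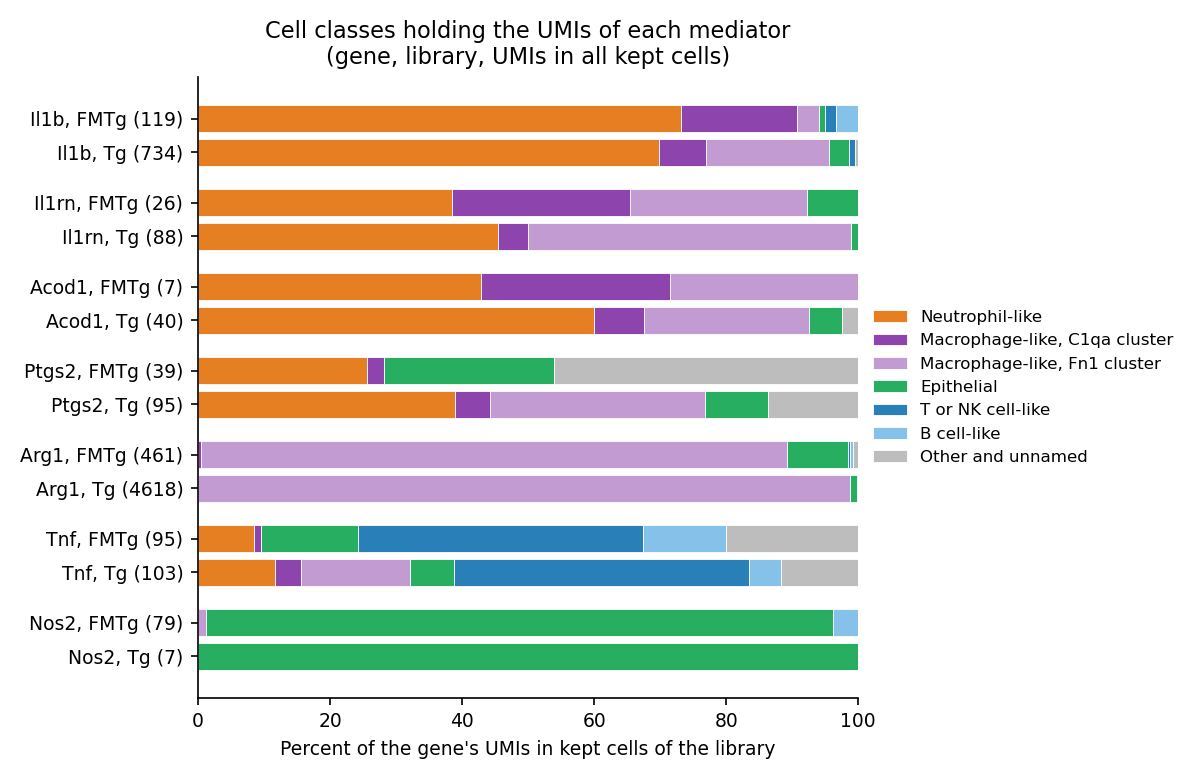
Each bar splits the UMIs of 1 gene in the kept cells of 1 library by cell class, as a percentage, with the number of UMIs in parentheses; FMTg stands above Tg. Il1b, Il1rn, Acod1 and Arg1 bars are mostly orange and purple (myeloid), Tnf bars are largely blue (lymphoid) and Nos2 bars are green (epithelial).

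Il1a, which encodes the interleukin-1 that acts as an alarm signal when cells die, was almost undetected. It had 1 UMI in all FMTg barcodes and 3 UMIs in all Tg barcodes. In kept cells it had 0 UMIs in 2675 FMTg cells, which allows a share of up to 0.112% of cells with a UMI, and 2 UMIs in 2913 Tg cells. No direction can be read from these counts.

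Neutrophil-like cells held 73.1% of the Il1b UMIs of FMTg and 69.9% of those of Tg, and macrophage-like cells held 21.0% in FMTg and 25.6% in Tg. Levels are given as CPM, the UMIs of a gene per 1000000 UMIs of a cell class, with the exact 95% Poisson interval. All 7 FMTg and all 53 Tg neutrophil-like cells had at least 1 Il1b UMI, while 1 of 480 FMTg and 0 of 442 Tg B cell-like cells did. The median depth was 3162.5 UMIs in FMTg and 3317.5 in Tg B cell-like cells, and 2186 UMIs in FMTg and 2292 in Tg neutrophil-like cells. The B cell-like cells, which should lack the gene, serve as the background level of free RNA. Neutrophil-like cells of FMTg had 87 Il1b UMIs, 5537 CPM (4435 to 6830), and those of Tg had 513 UMIs, 4198 CPM (3842 to 4577). The log2 ratio was 0.40 (95% counting interval 0.05 to 0.73), under the 1.5-fold size used for calls, and it changed sign to -0.42 with TMM and -0.47 with DESeq2 size factors. Those scalings moved every ratio in neutrophil-like cells by -0.82 and -0.87 on the log2 scale. A single FMTg cell held 44 of the 87 UMIs, the other 6 held 3, 4, 6, 7, 11 and 12, and without the top cell of each library the log2 ratio was -0.39. Per cell the median level was 3696 CPM in FMTg and 4303 CPM in Tg, and the ranges overlapped.

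Across all kept cells Il1b was 4.89 CPM in FMTg (119 UMIs) and 25.1 CPM in Tg (734 UMIs), a log2 ratio of -2.36 (-2.65 to -2.08). The neutrophil-like share of all UMIs was 0.0645% in FMTg and 0.418% in Tg, and that of macrophage-like cells was 1.68% in FMTg and 7.65% in Tg. Within neutrophil-like cells the level differed by far less than this total. From captured cells, fewer leukocytes in the tissue and fewer recovered from it cannot be told apart.

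Among macrophage-like cells Il1b had 25 UMIs in FMTg, 61.2 CPM (39.6 to 90.3), and 188 UMIs in Tg, 84.0 CPM (72.4 to 96.9), with a log2 ratio of -0.46 (-1.12 to 0.15). The clusters of the class differed. In the Fn1 cluster Il1b was 13.8 CPM in FMTg (4 UMIs in 2 of 29 cells) and 72.2 CPM in Tg (136 UMIs in 18 of 160 cells), a log2 ratio of -2.39 (-4.29 to -1.003). In the C1qa cluster it was 178.0 CPM in FMTg (21 UMIs in 5 of 18 cells) and 146 CPM in Tg (52 UMIs in 14 of 44 cells), a log2 ratio of 0.29 (-0.52 to 1.04). Of the Tg UMIs in the Fn1 cluster 63 lay in 1 cell that also had 254 UMIs of neutrophil markers, against a median of 8 in that cluster. Thinned to 2000 UMIs per cell, 6.98% of FMTg and 7.33% of Tg macrophage-like cells had an Il1b UMI, and unthinned the shares were 14.9% in FMTg and 15.7% in Tg.

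Il1rn, the natural antagonist of both interleukin-1 cytokines, also lay mostly in neutrophil-like and macrophage-like cells, and its direction between the libraries was not settled. In neutrophil-like cells it was 636 CPM in FMTg (10 UMIs in 4 of 7 cells) and 327 CPM in Tg (40 UMIs in 23 of 53 cells), with a log2 ratio of 0.96 (-0.21 to 1.98). In macrophage-like cells it was 34.3 CPM in FMTg (14 UMIs in 7 of 47 cells) and 21.0 CPM in Tg (47 UMIs in 23 of 204 cells), with a log2 ratio of 0.71 (-0.27 to 1.59). Both counting intervals include 0. With each macrophage-like cell weighted equally the ratio turned to -0.34, with a mitochondrial limit of 50% to -0.12, and with no such limit, where the class held other cells, to -2.18 (-4.56 to -0.45). In the C1qa cluster, where Il1rn had 7 FMTg UMIs in 3 cells and 4 Tg UMIs in 3 cells, the log2 ratio was 2.40 (0.43 to 4.62), from under the 20 UMIs asked for a call, and 5 of the FMTg UMIs lay in 1 cell. No B cell-like cell of either library had an Il1rn UMI. Every neutrophil-like cell with an Il1rn UMI, 4 in FMTg and 23 in Tg, also had Il1b, as all cells of the class did.

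Acod1 UMIs also lay mostly in myeloid cells. In neutrophil-like cells it had 3 UMIs in 2 of 7 FMTg cells, 191 CPM (39.4 to 558), and 24 UMIs in 15 of 53 Tg cells, 196 CPM (126 to 292). The log2 ratio was -0.04 (-2.42 to 1.68), an interval that spans large changes in both directions. Macrophage-like cells had 4 UMIs in FMTg and 13 in Tg, under the 20 UMIs asked for a call, with a log2 ratio of 0.75 (-1.32 to 2.45).

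Ptgs2 had several sources. Neutrophil-like cells had 10 UMIs in FMTg, 636 CPM (305 to 1170), 8 of them in 1 cell, and 37 UMIs in Tg, 303 CPM (213 to 417). The log2 ratio was 1.07 (-0.10 to 2.11), and -0.57 without the top cell of each library. Macrophage-like cells had 1 UMI in FMTg, 2.45 CPM (0.0620 to 13.6), and 36 UMIs in 14 of 204 Tg cells, 16.1 CPM (11.3 to 22.3). The log2 ratio was -2.72 with an interval of -8.06 to -0.15. The 31 Tg UMIs in the Fn1 cluster faced 0 FMTg UMIs in 29 cells. With 0 set to a floor of 3 counts Ptgs2 was 1.60-fold lower in FMTg there. That is a log2 ratio of -0.67, whose counting interval has no lower end and reaches up to -0.29. Tuft cell-like cells, the chemosensory cells of the epithelium, had 9 UMIs in each library, in 8 of 62 FMTg cells and 7 of 51 Tg cells, which is 7.97 CPM in FMTg and 9.73 CPM in Tg. In an unnamed, mixed cluster, 18 Ptgs2 UMIs lay in 1 FMTg cell and 12 of 13 in 1 Tg cell. Its leading genes included the fibroblast genes Col3a1 and Dcn but also Hist1h2ap and Pclaf. Of 7 fibroblast markers 0 were detected in at least 10% of its cells. Its median cell had 42 B cell marker UMIs in each library, while the Ptgs2-rich cell had 1 in FMTg and 0 in Tg.

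**Figure D2:**
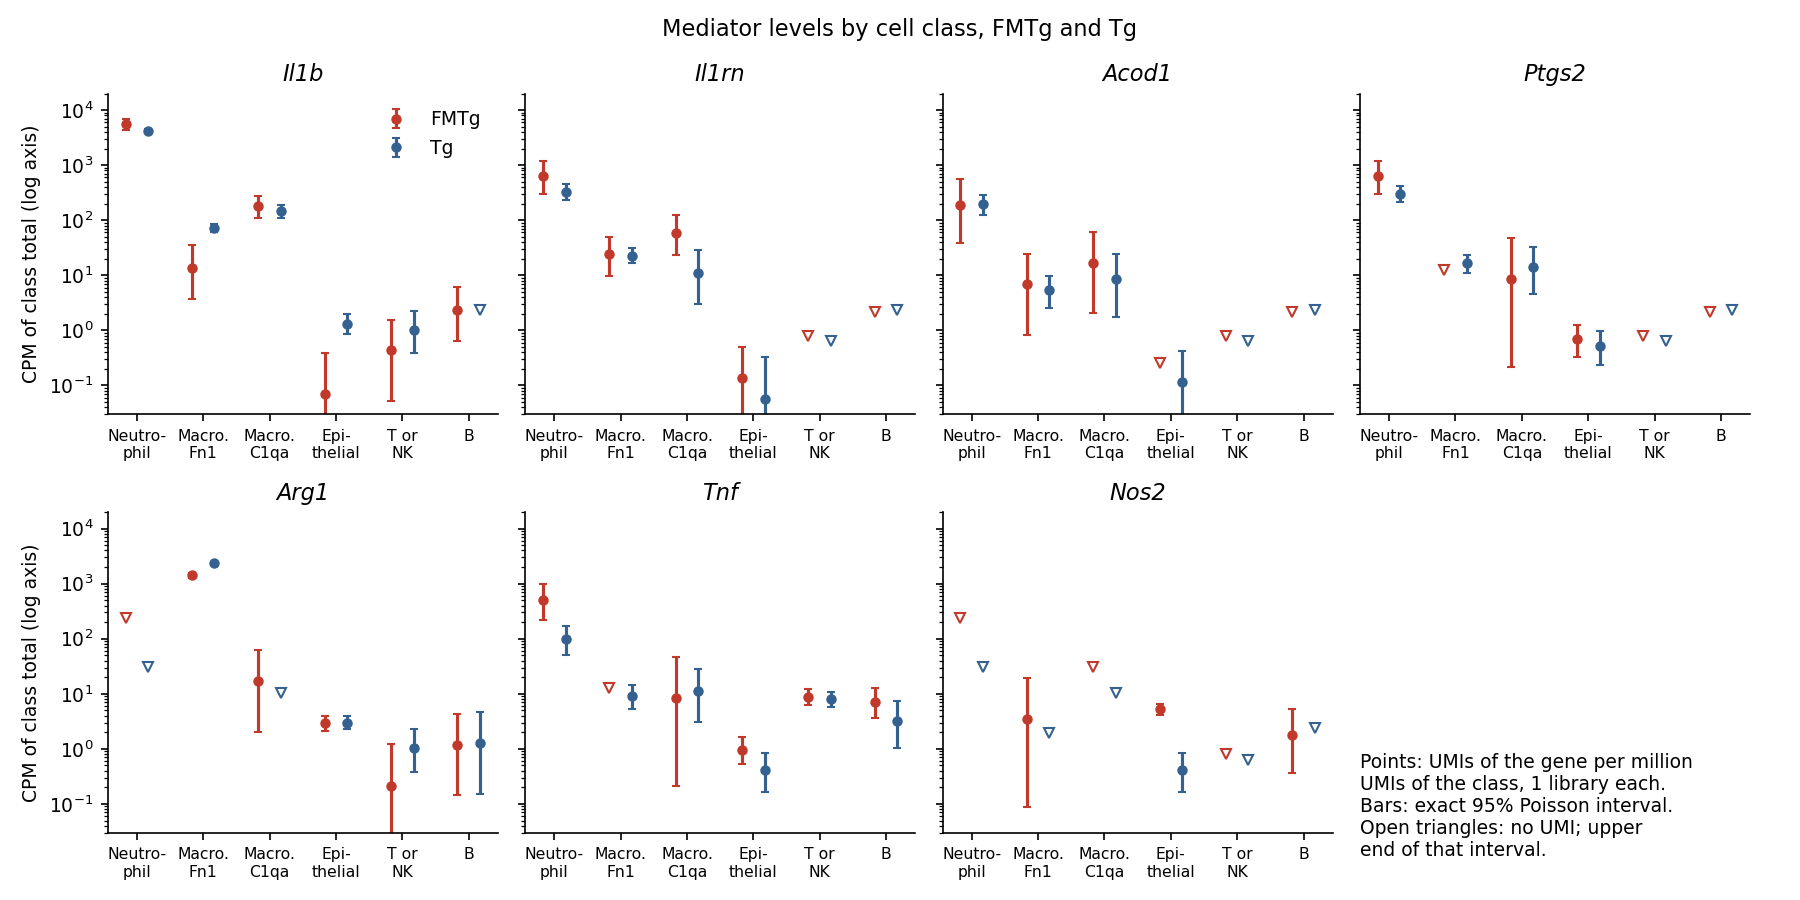
Each panel gives 1 gene in 6 cell classes, as CPM of the class total on a log axis, with FMTg (red) left of Tg (blue), exact 95% Poisson bars, and open triangles at the upper limit where no UMI was found. Il1b is highest in neutrophil-like cells (5537 CPM in FMTg, 4198 CPM in Tg), Arg1 in the Fn1 cluster (1407 CPM in FMTg, 2421 CPM in Tg), and Nos2 stands apart between the libraries in epithelial cells (5.198 CPM in FMTg, 0.405 CPM in Tg).

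Arg1 came mostly from the Fn1 cluster, which held 88.7% of its UMIs in FMTg and 98.7% in Tg. That cluster had 409 UMIs in FMTg, 1407 CPM (1274 to 1551), and 4558 UMIs in Tg, 2421 CPM (2352 to 2493), a log2 ratio of -0.78 (-0.93 to -0.64). At least 1 Arg1 UMI was present in 18 of 29 FMTg cells and 136 of 160 Tg cells, and the highest cell had 92 UMIs in FMTg and 198 in Tg. The median cell was at 330 CPM in FMTg and 1744 CPM in Tg. Among FMTg cells 11 of 29 had no Arg1 UMI while the upper quartile was 2023 CPM, so the cells were spread between none and levels inside the Tg range. The C1qa cluster had 2 UMIs in FMTg and 0 in Tg. Over the whole macrophage-like class Arg1 was 1006 CPM in FMTg (911 to 1108) and 2036 CPM in Tg (1977 to 2096), a log2 ratio of -1.02 (-1.17 to -0.87). The Fn1 cluster made up 29 of 47 FMTg and 160 of 204 Tg cells of that class. Thinned to 2000 UMIs, 34.9% of FMTg and 64.4% of Tg macrophage-like cells had an Arg1 UMI, and unthinned the shares were 40.4% in FMTg (median depth 8389 UMIs) and 66.7% in Tg (10952.5 UMIs). In B cell-like cells 2 of 480 FMTg and 2 of 442 Tg cells had one.

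Within the Fn1 cluster the counting interval of the log2 ratio lay above 0 for 10 of the 18 macrophage or monocyte markers, below 0 for 4 and across 0 for 4. Ccr2, the receptor that recruits monocytes, was 754 CPM in FMTg and 789 CPM in Tg, a log2 ratio of -0.07 (-0.28 to 0.14). Ccl9 was 3751 CPM in FMTg and 5067 CPM in Tg, a log2 ratio of -0.43 (-0.53 to -0.34). Ly6c2, a marker of inflammatory monocytes, had a log2 ratio of -0.54 (-0.88 to -0.21), and Cd14 one of -0.47 (-0.81 to -0.15). Cd163, a scavenger receptor of tissue macrophages, had a log2 ratio of 3.97 (3.29 to 4.69), and Mrc1 one of 0.89 (0.56 to 1.21). Few cells of the cluster had a Cd163 UMI, 17.2% in FMTg and 5% in Tg. C1qa, a complement gene of mature tissue macrophages, was 977 CPM in FMTg and 215 CPM in Tg, although like shares of cells had a C1qa UMI, 27.6% in FMTg and 26.3% in Tg. The part of these marker differences in the Arg1 value was not tested.

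**Figure D3:**
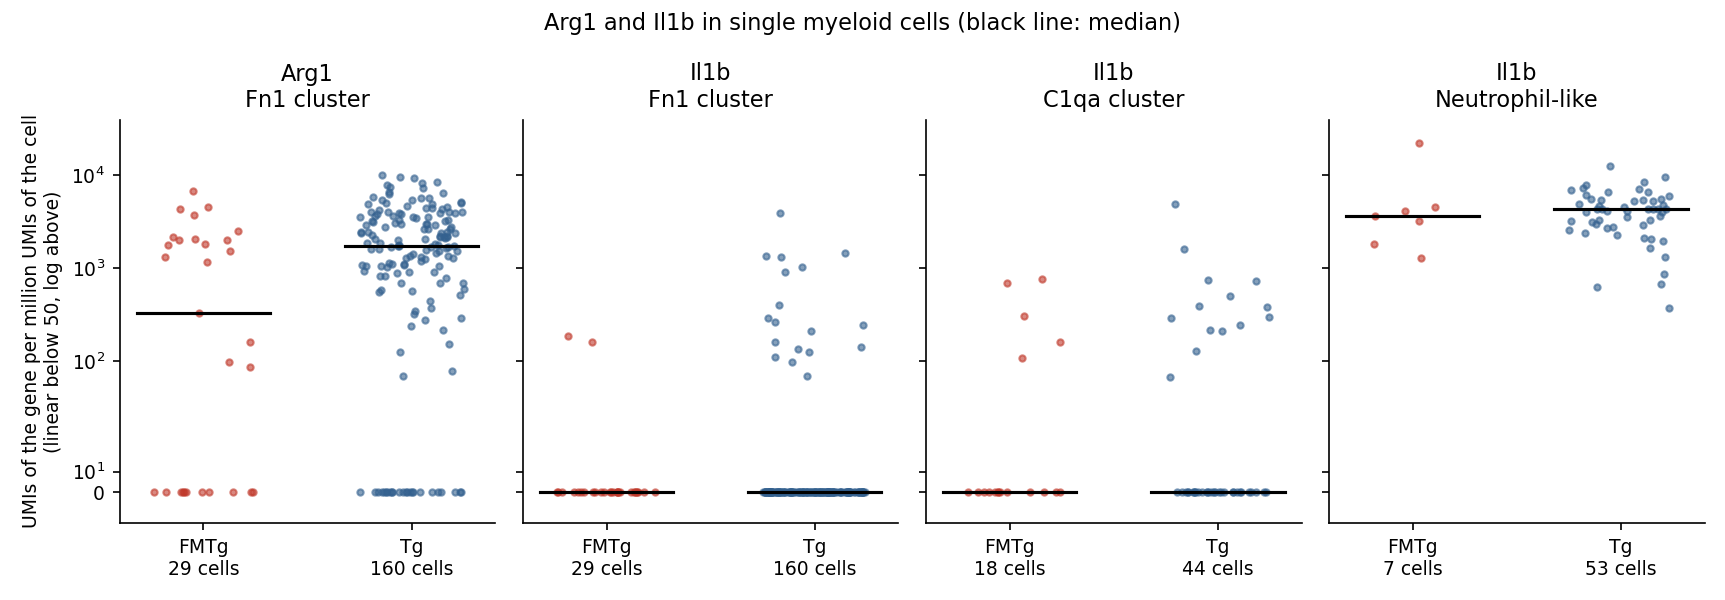
Each point is 1 cell, with UMIs of the gene per 1000000 UMIs of that cell (linear below 50, logarithmic above), FMTg left of Tg, and a black line at the median. In the Fn1 cluster the Arg1 median is 330 in FMTg and 1744 in Tg with overlapping ranges, and 1 FMTg neutrophil-like cell lies above all others for Il1b.

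Outside macrophages Arg1 was found in enteroendocrine cell-like cells, the hormone-secreting cells of the epithelium. They had 29 UMIs in FMTg, 136.1 CPM (91.2 to 196), in 4 of 15 cells, and 17 UMIs in Tg, 136.3 CPM (79.4 to 218), in 4 of 14 cells. All 29 FMTg UMIs lay in cells with at least 20 UMIs of Tph1, the serotonin synthesis gene (4 of 9 such cells), while 16 of the 17 Tg UMIs lay in cells with at least 20 UMIs of the somatostatin gene Sst (3 of 3). Over all barcodes Arg1 was detected in 8 of 17 FMTg and 1 of 9 Tg Tph1 cells, in 1 of 3 FMTg and 4 of 7 Tg Sst cells, and in 0 of the 5 FMTg and 11 Tg Gip cells and 0 of the 12 FMTg and 6 Tg Cck cells. These hormone groups were chosen after the Arg1 values were seen. In the rest of the epithelium the largest single counts were 12 UMIs in 1 FMTg enterocyte-like cell with 15 macrophage marker UMIs, against a cluster median of 3, and 19 UMIs in 1 Tg enterocyte-like cell with 103 against a median of 8. Over all epithelial cells Arg1 was 2.98 CPM in FMTg (2.16 to 4.01) and 3.01 CPM in Tg (2.25 to 3.95), a log2 ratio of -0.02 (-0.63 to 0.60).

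Nos2 was the member called higher in FMTg epithelium, and almost none of its UMIs lay in macrophages, the cells it is best known for. Macrophage-like cells had 1 UMI in FMTg, 2.45 CPM (0.0620 to 13.6), and 0 in Tg (upper limit 1.65 CPM). Neutrophil-like cells had none in either library, with upper limits of 235 CPM in FMTg and 30.2 CPM in Tg. All these upper limits lie above the epithelial levels given next. A lower Nos2 level per UMI in myeloid than in epithelial cells was therefore not shown. Epithelial cells had 75 UMIs in 41 of 604 FMTg cells, 5.198 CPM (4.09 to 6.52), and 7 UMIs in 6 of 599 Tg cells, 0.405 CPM (0.163 to 0.835), a log2 ratio of 3.68 (2.57 to 5.04). The median depth of epithelial cells was 19713 UMIs in FMTg and 26287 in Tg. Depth bears on the shares of cells with a UMI, while CPM already divides by the class total. Thinned to 2000 UMIs per cell, 6 of 593 FMTg and 0 of 578 Tg epithelial cells had a Nos2 UMI. In a separate random draw over enterocyte-like cells alone, 3 of 439 FMTg and 2 of 400 Tg cells had one. Such counts are too low and vary too much between draws to give an order, so the shares of cells at equal depth do not show the difference that the UMI sums show. In B cell-like cells 3 of 480 FMTg and 0 of 442 Tg cells had one, which is 1.79 CPM (0.369 to 5.23) in FMTg. Summed macrophage markers in epithelial cells were 159 CPM in FMTg and 199 CPM in Tg, and summed neutrophil markers 2.08 CPM in FMTg and 36.6 CPM in Tg, so neither was higher in FMTg.

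The Nos2 difference was not even along the epithelium. The cluster numbered 4, with Clca4a, Ada, Slc28a2, Apoa4, Ifit1bl1 and Rsad2 among its leading genes, held 60.0% of the epithelial Nos2 UMIs of FMTg. It had 241 FMTg cells and 23 Tg cells. Whether it is a cell type or a feature of the FMTg library was not tested. Within it Nos2 was 9.30 CPM in FMTg (45 UMIs in 23 cells) and 8.15 CPM in Tg (3 UMIs in 2 cells), a log2 ratio of 0.19 (-1.45 to 2.52). In the cluster numbered 3, led by the enterocyte genes Slc5a12, Pck1 and Lct, Nos2 had 21 UMIs in 12 of 103 FMTg cells and 0 in 163 Tg cells. With 0 set to 3 counts it was 12.3-fold higher in FMTg, a log2 ratio of 3.62 whose counting interval starts at 3.19 and has no upper end. Goblet cell-like cells had 5 UMIs in 44 FMTg cells, 4 of them in 1 cell, and 0 in 121 Tg cells. In the other enterocyte-like clusters Nos2 was not higher in FMTg: cluster 7 had 1 UMI in 72 FMTg cells and 3 in 131 Tg cells, a log2 ratio of -0.40 (-6.12 to 3.24), and cluster 13 had 0 in 30 FMTg cells and 1 in 86 Tg cells. Without cluster 4 the epithelial log2 ratio was 3.72 (2.22 to 5.69), from 30 FMTg and 4 Tg UMIs. The kept cells held the minority of this transcript: 60.0% of all Nos2 UMIs in FMTg and 61.9% in Tg lay in barcodes above the mitochondrial limit. Epithelial barcodes among those had 145 UMIs in FMTg, 6.93 CPM, and 13 in Tg, 0.667 CPM, a log2 ratio of 3.38 (2.56 to 4.32).

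**Figure D4:**
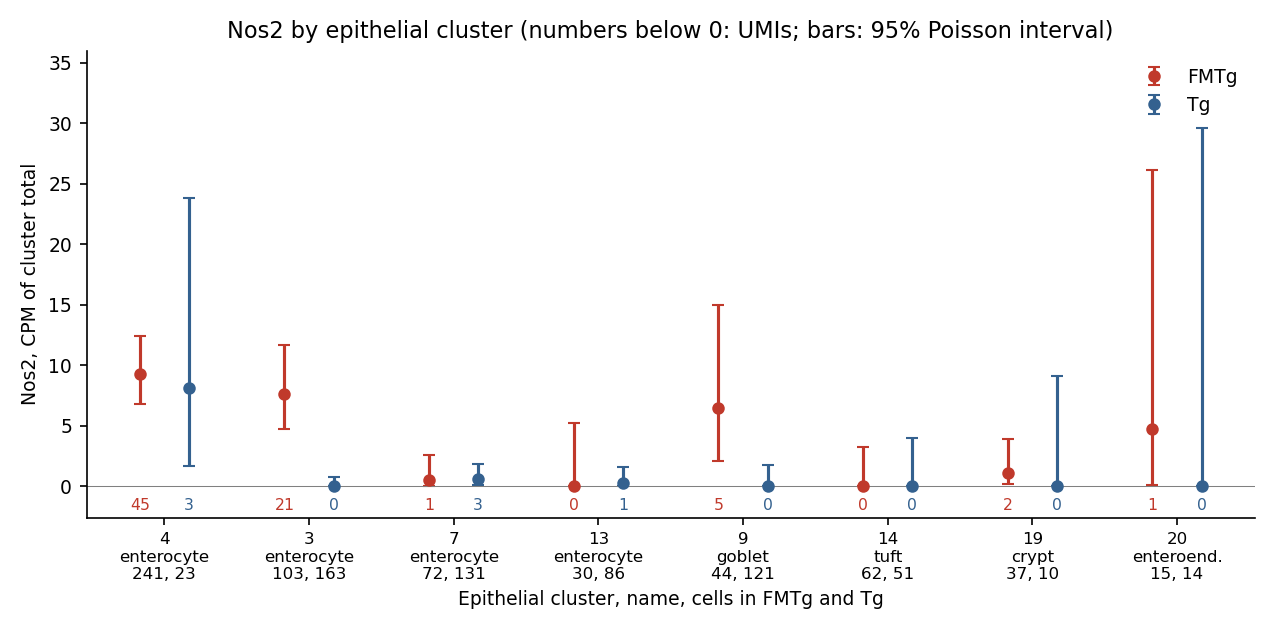
Nos2 in each epithelial cluster, as CPM of the cluster total with exact 95% Poisson bars, FMTg (red) left of Tg (blue), UMIs below the axis line and cell numbers under the cluster names. Cluster 4 has like levels in both libraries (9.30 CPM in FMTg, 8.15 CPM in Tg) but 241 FMTg and 23 Tg cells, while cluster 3 has 7.61 CPM in FMTg and no UMI in Tg.

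The largest share of Tnf UMIs lay in T or NK cell-like cells, at like levels in both libraries. That share also follows the number of such cells captured, and the Tnf level was higher in neutrophil-like cells. T or NK cell-like cells had 41 UMIs in FMTg, 8.86 CPM (6.36 to 12.02), and 46 in Tg, 7.96 CPM (5.82 to 10.6), a log2 ratio of 0.15 (-0.49 to 0.79). The cluster led by Cd8b1 and Gzmk had 30 of those FMTg UMIs and 24 of the Tg UMIs. In B cell-like cells 11 of 480 FMTg and 5 of 442 Tg cells had a UMI, so free RNA gives no clean zero for Tnf, which B cells can also make. Among neutrophil-like cells 2 of 7 FMTg cells held 8 UMIs, 509 CPM (220 to 1003), and 8 of 53 Tg cells held 12, 98.2 CPM (50.7 to 172), a log2 ratio of 2.37 (0.88 to 3.79). The FMTg value rested on 1 cell with 6 UMIs, and without the top cell of each library the log2 ratio was 0.98. Macrophage-like cells had 1 UMI in FMTg and 21 in Tg, with a log2 ratio of -1.94 whose interval of -7.31 to 0.70 includes 0. Goblet cell-like cells had 10 UMIs in 6 of 44 FMTg cells and 4 in 3 of 121 Tg cells, a log2 ratio of 2.78 (0.99 to 4.91) from under the 20 UMIs asked for a call. Over all epithelial cells it was 1.26 (-0.15 to 2.81).

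A gene was called higher or lower where it had at least 20 UMIs over both libraries, differed at least 1.5-fold and had a counting interval that left out 0. In macrophage-like cells 0 of 5 members with enough UMIs were called higher in FMTg, where 5.80% of 8038 genes were, and 2, Arg1 and Ptgs2, were called lower, where 5.41% were. In neutrophil-like cells Tnf was the only one of 5 called higher, where 5.33% of 919 genes were, and 0 were called lower, where 7.40% were. In epithelial cells Nos2 was called higher of 4 with enough UMIs, where 21.3% of 11961 genes were, and Il1b was called lower, where 5.57% were. The epithelial call for Il1b rested on 1 FMTg and 23 Tg UMIs, 17 of which lay in 1 goblet cell-like cell with 509 neutrophil marker UMIs. Without the top cells Il1b was at 0 FMTg and 6 Tg UMIs and was no longer called. In the Fn1 cluster alone 4.17% of 7366 genes were called higher and 3.65% lower, and Arg1, Il1b and Ptgs2 were among the genes called lower. In the C1qa cluster alone 6.43% of 3329 genes were called higher and 12.3% lower, and Il1b, the only member with enough UMIs there, was called neither way. TMM and DESeq2 size factors moved every epithelial ratio by -0.24 and -0.26, and every macrophage ratio by -0.04, on the log2 scale.

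**Figure D5:**
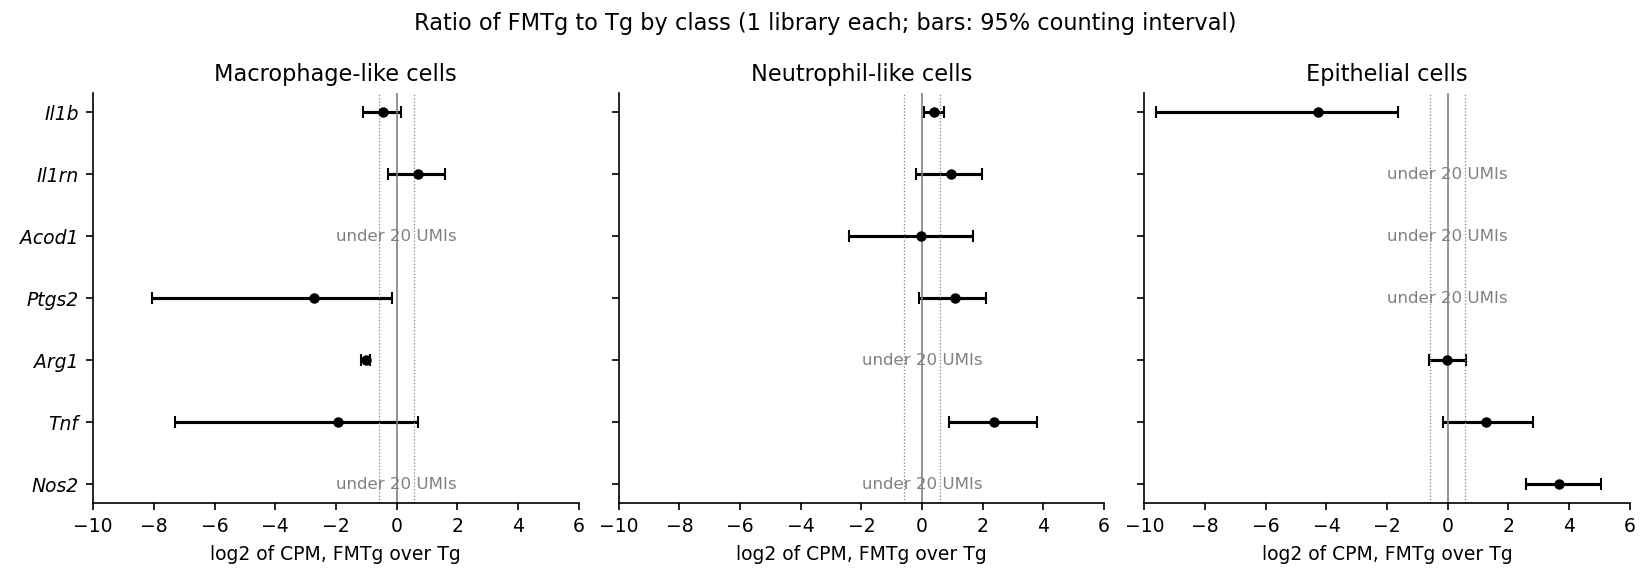
Points give the log2 ratio of CPM, FMTg over Tg, with the 95% counting interval, for members with at least 20 UMIs in the class; dotted lines mark 1.5-fold. Arg1 at -1.02 in macrophage-like cells and Nos2 at 3.68 in epithelial cells lie well clear of 0, while most other intervals are wide or include 0.

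Genes of the same pathways put these values in context, and lists of them were tallied in the same way without a test. In macrophage-like cells the arginine and polyamine list had 11 of 12 genes with enough UMIs, 1 higher and 4 lower in FMTg, with a median log2 ratio of -0.22 beside -0.08 over all genes. Of all genes in the class 5.8% were called higher and 5.41% lower. Arg2, the mitochondrial arginase, was 9.79 CPM in FMTg and 34.8 CPM in Tg. Odc1, which makes the first polyamine from ornithine, was 17.1 CPM in FMTg and 84.9 CPM in Tg, a log2 ratio of -2.31 (-3.64 to -1.24). The arginine transporter gene Slc7a1 was 7.34 CPM in FMTg and 39.8 CPM in Tg. In epithelial cells the same list had 7 of 11 higher and 1 lower, with a median of 0.93 beside 0.23 over all genes. Of all epithelial genes 21.3% were called higher and 5.57% lower. In these cells Arg2 was lower, at 144 CPM in FMTg and 459 CPM in Tg, while Odc1 was 112 CPM in FMTg and 54.7 CPM in Tg. Gch1, which starts the synthesis of the cofactor of nitric oxide synthase, was 66.6 CPM in FMTg and 27.6 CPM in Tg in epithelial cells, a log2 ratio of 1.27 (1.11 to 1.43). Gbp2, an interferon-gamma response gene, was 3.67 CPM in FMTg and 8.11 CPM in Tg there. The list of the Nos2 cofactor and the interferon-gamma response had 2 of 9 epithelial genes higher and 1 lower. Its median was 0.004 beside 0.23 over all genes, so the list as a whole was not shifted up.

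Other genes of alternative activation were not lower in FMTg macrophage-like cells as Arg1 was. Of 9 with enough UMIs in macrophage-like cells 5 were called higher in FMTg and 0 lower, with a median log2 ratio of 0.65, and in the Fn1 cluster 4 of 7 were higher with a median of 0.89. Over all genes 5.8% were called higher and 5.41% lower in macrophage-like cells, and 4.17% higher and 3.65% lower in the Fn1 cluster. Retnla was 433 CPM in FMTg and 19.2 CPM in Tg, Cd163 was 154 CPM in FMTg and 12.5 CPM in Tg, and Mgl2 was 61.2 CPM in FMTg and 30.4 CPM in Tg. The Cd163 values rested on few cells, 10.6% of FMTg and 4.41% of Tg macrophage-like cells. Chil3 was 2168 CPM in FMTg and 2017 CPM in Tg. In the C1qa cluster 0 of 5 were higher and 1 was lower, where 6.43% of all genes were higher and 12.3% lower. Mrc1, Cd163 and Clec10a of this list also served as markers for naming cells, so they are not independent of the class.

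Of 20 regulators and early targets of NF-kB in macrophage-like cells 2 were called higher in FMTg and 4 lower. Cxcl2, a neutrophil attractant, was 184 CPM in FMTg and 741 CPM in Tg, a log2 ratio of -2.01 (-2.37 to -1.68), and Ccl4 was 26.9 CPM in FMTg and 172 CPM in Tg. Icam1 was higher, at 71.0 CPM in FMTg and 29.9 CPM in Tg. None of 10 measured genes of interleukin-1 receptors and signalling and none of 9 of the inflammasome was called in either direction. With 5.80% of all genes called higher and 5.41% lower in this class, counts of 0 among so few genes are near the share over all genes. Pycard, the inflammasome adaptor, was 742 CPM in FMTg and 716 CPM in Tg, and Il18 was 48.9 CPM in FMTg and 26.8 CPM in Tg. Of 14 immediate early and stress genes, which also respond to tissue dissociation, 1 was higher and 4 were lower in FMTg, with a median of -0.43. Hspa1b was 108 CPM in FMTg and 237 CPM in Tg. The clusters differed for this list. In the Fn1 cluster 1 of 14 genes was higher and 2 were lower, with a median of -0.22 beside -0.05 over all genes. In the C1qa cluster 0 of 13 were higher and 6 were lower, with a median of -1.52 beside -0.22 over all genes. The part of dissociation in the member values was not tested.

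The genes whose pattern over cell groups was most like that of each member were found by Pearson correlation of log2(CPM + 10) over 37 cluster-by-library sums, among 11409 genes. These sums share libraries and cells of a cluster, so the values are a description. A sum needed at least 20 cells. This left out the neutrophil-like cells (7) and the C1qa cluster (18) of FMTg, and enteroendocrine cell-like cells of both libraries. Neutrophil-like cells thus entered from Tg only. Csf3r, Trem1, Mmp9 and Hdc also served as markers for naming that class, so they are not independent of it. Il1b was closest to Cd33 (r = 0.99), Csf3r and Il1r2, Il1rn to Trem1 (0.99), Csf3r and Mmp9, and Acod1 to Csf3r (0.98), Mmp9 and Slc7a11. Arg1 was closest to Folr2, Ccl12 and Ednrb (0.98 each), and Ptgs2 to Hdc, Gm5483 and Cd33 (0.87 each). For Tnf the nearest genes, Evi2, Mbp and Ppp1r15a, reached 0.79 or less. For Nos2 they were Slc6a3 (0.83), Clca3a1 and Itgb6, and for Il1a 2 UMIs were too few to name any.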

How the data were processed

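Single-cell suspensions of fresh small intestine were captured with the 10x Genomics Chromium 3' protocol, per the labels' protocols. The deposited tables hold whole-number UMI counts per gene and barcode, not normalized; the submitters' processing notes name CASAVA 1.8.1, Cell Ranger 3.0 and mm10. The files have 0 columns of other samples. Barcodes with under 500 UMIs, under 300 genes or over 25% mitochondrial UMIs were removed, and then the highest scrublet scores at 0.8% per 1000 barcodes (144 FMTg, 154 Tg). Both libraries were clustered together (scanpy 1.11.5, scikit-learn 1.9.0, leidenalg 0.10.2, Python 3.11.15; 2000 variable genes, 30 components, 20 neighbours, resolution 1.0). Clusters were named from 21 marker lists, and stricter rules that left clusters unnamed were added after the clusters were seen. Counts were summed per library and class, divided by the class total (CPM), and given exact Poisson, binomial or conditional binomial intervals at 95% (SciPy 1.17.1); 3 counts stood for 0. PCR and capture errors are not covered. No differential test was run; edgeR 4.0.16 (TMM) and DESeq2 1.42.0 served for scaling only. The ratio code was checked on simulated counts. The 8 members and 12 gene lists were chosen with earlier results of these data known. From each list the 3 genes with the most UMIs in macrophage-like cells and the 3 with the largest ratio among those with at least 50 UMIs could be named, and for each member the 3 genes most like it. Processing alternatives were 15 planned and 3 added after seeing the data (single clusters, and without top cells). Positions are from GENCODE, promoters from RefSeq; Arg1 and Nos2 had no promoter window.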

Additional observations from a re-analysis of the deposited data

Results flagged for a closer look

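The log2 ratio of Il1b (CPM, FMTg over Tg) had a counting interval above 0 in neutrophil-like cells, 0.40 (0.05 to 0.73), and below 0 in epithelial cells, -4.26 (-9.63 to -1.64). The difference between these classes was not tested. The positive sign in neutrophil-like cells was not stable: the ratio was -0.42 with TMM, -0.47 with DESeq2 size factors and -0.39 without the top cell of each library. Of the 23 epithelial UMIs of Tg 17 lay in 1 cell with neutrophil markers.

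Barcodes above the mitochondrial limit, which the comparisons above do not use for calls, also held UMIs of the members. In epithelial barcodes of that kind Nos2 and Tnf were higher in FMTg. The log2 ratio of Nos2 was 3.38 (2.56 to 4.32), from 145 FMTg and 13 Tg UMIs. For Tnf it was 1.66 (0.17 to 3.46), from 17 UMIs in 16 of 2762 FMTg barcodes and 5 UMIs in 5 of 2552 Tg barcodes. Among barcodes of no named class Tnf had 13 FMTg and 2 Tg UMIs, a log2 ratio of 2.34 (0.20 to 5.54). In epithelial barcodes Il1b and Arg1 were lower in FMTg. The log2 ratio of Il1b there was -3.42 (-5.11 to -2.11), from 5 FMTg and 50 Tg UMIs. That of Arg1 was -1.36 (-2.24 to -0.53), from 18 FMTg and 43 Tg UMIs. Il1b was not lower in the myeloid barcodes, where both intervals include 0. Its log2 ratio was 1.14 (-0.27 to 2.58) in macrophage barcodes, from 11 FMTg and 9 Tg UMIs. In neutrophil barcodes it was 0.25 (-0.60 to 0.996), from 16 FMTg and 146 Tg UMIs. In macrophage barcodes the log2 ratio of Arg1 was -4.72 (-7.01 to -3.14). It rested on few barcodes, with 3 UMIs in 1 of 44 FMTg barcodes and 142 UMIs in 6 of 47 Tg barcodes.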

How the results depend on the processing

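Over the counts of members called, the shares of UMIs and the member ratios, 155 of 182 values under an alternative kept their direction and call or stayed within 1.5 times, 27 moved and 0 reversed a call. Members called higher in epithelial cells, 1 as reported, were 2 with each cell classed on its own, 0 with a mitochondrial limit of 10%, 2 with a limit of 50% and 3 with no limit. Members called higher in neutrophil-like cells, 1 as reported, were 0 with a minimum of 50 UMIs, 4 with each cell classed on its own, 2 with a limit of 50%, 2 with doublets kept and 0 without the top cell of each library. Members called lower in epithelial cells, 1 as reported, were 0 with a minimum of 50 UMIs, 0 in enterocyte-like clusters only and 0 without the top cells. Members called lower in macrophage-like cells, 2 as reported, were 1 with a minimum of 50 UMIs, 0 in the C1qa cluster only, 1 with each cell classed on its own and 1 with no mitochondrial limit. With no limit, members with over 50% of UMIs in myeloid classes were 2 in FMTg and 3 in Tg, against 4 in FMTg and 5 in Tg as reported. A higher minimum and left-out cells lower counts by construction, and for the other settings the cause was not tested. The log2 ratio of Nos2 in epithelial cells stayed between 3.24 and 4.07 under the 14 alternatives that gave one. Arg1 had a ratio in epithelial cells under 15, so the Nos2 range does not cover every setting. In macrophage-like cells the log2 ratio of Arg1 stayed between -1.29 and -0.73 under the 14 that gave one. The C1qa cluster alone had too few Arg1 UMIs for a ratio, and with no mitochondrial limit the macrophage-like class (58 FMTg and 77 Tg cells) held 0% of the Arg1 UMIs of FMTg and 0.0410% of those of Tg, so that the cells rich in Arg1 were not named macrophage-like. For Il1b the ratio spanned -2.39 to 0.29 in macrophage-like cells and -0.47 to 1.16 in neutrophil-like cells. The single clusters and the left-out top cells were chosen after seeing the data. The 7 FMTg neutrophil-like cells held 15712 UMIs in all, which limits the precision of every ratio in that class. No paired analysis was possible because each genotype had 1 library, for which reason no replicate could be left out.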
